A study of Mus musculus with 36 samples.

Results

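The 10 genes described here encode the contractile and calcium-handling proteins of slow and oxidative muscle fibres: Myh7, Myh2, Myl2, Myl3, Tnni1, Tnnt1, Tnnc1, Tpm3, Atp2a2 and Casq2. They were chosen by name, and all 10 were found among the 24319 gene symbols of the deposited table. The values are FPKM, fragments per kilobase of transcript scaled to the mapped fragments of each library, measured by polyadenylated RNA sequencing of mouse gastrocnemius muscle, a calf muscle. Muscle came from mice in which Bmal1, a core clock gene, was deleted in the liver (Bmal1hep-/-) and from wild-type mice (WT), at 6 zeitgeber times (ZT), every 4 h from 0 to 20 h. Each of the 12 groups had 3 biological replicates, which gave 18 libraries per genotype and 36 in all. Age, sex, strain and Cre driver were not given in the sources used here, and the muscle mRNA does not test a deletion made in the liver. By its title the series is about the reach of the liver clock into muscle rhythms and mitochondria, and slow fibre mRNAs are examined here for both genotype and time.

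Skeletal muscle is a mixture of fibres that differ in speed and metabolism. Slow type I fibres carry the myosin heavy chain encoded by Myh7 together with their own light chains, troponins, tropomyosin and calcium pump, resist fatigue and depend on mitochondria. Type IIa fibres carry the heavy chain of Myh2 and are fast yet oxidative, whereas type IIx and type IIb fibres carry those of Myh1 and Myh4. The mouse gastrocnemius is made mostly of fast fibres, with slow fibres gathered in its deep part.

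Promoter sequences are shown for 3 genes whose mRNAs varied closely together between libraries (Myh7, Tnni1 and Tnnc1) and for 2 that followed them less closely (Myh2 and Casq2). They run from 250 bases before to 50 after the gene start, 5′ to 3′ on the gene's strand, are taken from RefSeq on build GRCm38.p6, and use the first start listed where a gene has more than 1. The Myh7 window is chr14:54994577-54994876 on the minus strand. The Tnni1 window is chr1:135799171-135799470 on the plus strand. The Tnnc1 window is chr14:31208062-31208361 on the plus strand. The Myh2 window is chr11:67170777-67171076 on the plus strand and that of Casq2 is chr3:102086165-102086464 on the plus strand. Capitals mark CCACCC and its reverse complement GGGTGG.
Myh7: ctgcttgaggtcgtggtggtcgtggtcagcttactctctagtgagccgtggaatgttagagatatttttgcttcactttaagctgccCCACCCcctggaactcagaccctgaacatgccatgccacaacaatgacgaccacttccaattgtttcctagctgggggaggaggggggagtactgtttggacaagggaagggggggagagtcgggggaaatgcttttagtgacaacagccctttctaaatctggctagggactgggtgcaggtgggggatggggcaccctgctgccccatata
Tnni1: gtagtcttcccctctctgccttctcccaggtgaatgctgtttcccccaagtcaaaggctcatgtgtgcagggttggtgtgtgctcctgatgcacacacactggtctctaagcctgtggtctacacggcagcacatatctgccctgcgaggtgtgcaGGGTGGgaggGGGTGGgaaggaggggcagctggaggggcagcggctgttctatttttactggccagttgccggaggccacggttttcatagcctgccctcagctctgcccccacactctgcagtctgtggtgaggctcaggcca
Tnnc1: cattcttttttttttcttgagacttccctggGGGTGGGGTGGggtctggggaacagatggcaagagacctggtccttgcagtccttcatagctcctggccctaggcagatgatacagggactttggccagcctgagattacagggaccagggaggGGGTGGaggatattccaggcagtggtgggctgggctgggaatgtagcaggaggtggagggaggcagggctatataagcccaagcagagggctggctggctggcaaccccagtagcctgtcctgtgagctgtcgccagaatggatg
Myh2: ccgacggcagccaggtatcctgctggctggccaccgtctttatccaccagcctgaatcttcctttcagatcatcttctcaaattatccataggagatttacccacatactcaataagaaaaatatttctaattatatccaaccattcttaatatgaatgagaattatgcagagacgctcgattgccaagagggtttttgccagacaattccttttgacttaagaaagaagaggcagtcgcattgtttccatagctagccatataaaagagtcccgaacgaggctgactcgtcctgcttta
Casq2: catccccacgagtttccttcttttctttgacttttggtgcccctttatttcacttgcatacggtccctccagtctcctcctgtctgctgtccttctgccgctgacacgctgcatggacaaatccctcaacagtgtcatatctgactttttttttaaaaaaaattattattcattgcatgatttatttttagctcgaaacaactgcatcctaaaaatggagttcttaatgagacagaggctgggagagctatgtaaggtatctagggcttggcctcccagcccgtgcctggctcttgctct

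Of the 10 genes, 9 had a promoter entry, and Atp2a2 had none. CCACCC, searched on both strands with overlaps counted, lay in 6 of the 9 (Myh7, Myl3, Tnni1, Tnnt1, Tnnc1 and Tpm3), against 31.5% of all 32851 promoters of the same length. It occurred once in Myh7, at 2 places in Tnni1 and at 3 places in Tnnc1, where a pair of them share a base. The motif was marked after the promoters had been read, so its share is a description. The other motifs searched on both strands were CANNTG, the E-box core, in 8 of 9 against 72.3% of all promoters, and CATTCC in 3 of 9 against 14.7%. CAGCTG, which is contained in CANNTG, lay in 3 of 9 against 16.3%, and TATAAA in 2 of 9 against 13.6%. CACGTG, the E-box form bound by the clock factor BMAL1 with CLOCK and also contained in CANNTG, lay in 0 of 9 windows against 7.15% of all promoters. The MEF2 motif lay in Casq2 and the CArG box in Myl3, against 3.19% and 1.63% of all promoters. These letters describe the windows and were not tied to any measured change.

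All 10 mRNAs were above 0 in every library, and all 10 passed the filter of a mean of at least 1 FPKM that 10837 genes of the table passed. By median FPKM over 36 libraries, which is a level per length, Myh2 came first at 316.6, followed by Myl3 at 232.8 and Myl2 at 211.3. Tnnc1 (80.3) and Tpm3 (77.3) followed, then Tnnt1 (55.2) and Atp2a2 (55.1), Tnni1 (37.1) and Myh7 (35.9), and Casq2 came last at 8.31. Within libraries, 3 steps of that order were complete: Myl2 exceeded Tnnc1, Tpm3 exceeded Tnnt1 and Myh7 exceeded Casq2 in 36 of 36 libraries. Atp2a2 exceeded Tnni1 in 35 of 36, and Myh2 exceeded Myl3, and Myl3 exceeded Myl2, in 29 of 36 each. The neighbours Tnnt1 and Atp2a2 changed places between libraries, with Tnnt1 higher in 15 of 36, and so did Tnnc1 and Tpm3 (23 of 36) and Tnni1 and Myh7 (26 of 36).

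The fast counterparts of these genes stood far higher, as the share of each slow gene in its slow and fast pair shows. Tnni1, the slow troponin I that holds back contraction at rest, made up a median of 0.227% of Tnni1 plus Tnni2 FPKM in Bmal1hep-/- muscle and 0.337% in WT muscle. Myl2, the slow regulatory light chain, made up 1.34% of Myl2 plus Mylpf in Bmal1hep-/- muscle and 1.54% in WT muscle. Atp2a2, the slow calcium pump, made up 0.431% of Atp2a2 plus Atp2a1 in Bmal1hep-/- muscle and 0.493% in WT muscle. For Myl2, Myl3, Tnni1, Tnnt1, Tnnc1, Tpm3, Atp2a2 and Casq2 alike, no library put the slow gene above 3.72% of its pair. In bulk tissue, fewer slow fibres and less RNA per slow fibre cannot be told apart.

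The fast myosin heavy chain Myh4 was listed at 0 in 34 of 36 libraries and at 8323 FPKM in Bmal1hep-/- ZT4 replicate 3 and 7445 FPKM in WT ZT12 replicate 1. Tnni2 and Atp2a1 of the same fast fibres were at 9405 FPKM or more in every library, so Myh4 is given only as listed and no share here uses it. Acta1, the skeletal actin, was likewise listed at 0 in 1 Bmal1hep-/- library and between 26512 and 45257 FPKM in the other 35. Myosin heavy chain genes share long near-identical stretches, as Tpm3 does with other tropomyosins, so how reads were split among them is uncertain.

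Markers of other cells were measured beside these genes. Of 8 cardiac markers, Myh6, Nppa, Nppb, Tnni3, Mybpc3 and Ryr2 stayed below 1 FPKM in every library, while Tnnt2 (median 2.48 FPKM) and Actc1 (172.4 FPKM), which skeletal muscle also makes, did not. The summed level of 5 Schwann cell and nerve markers was 54.2 to 378.9 FPKM in Bmal1hep-/- muscle and 57.6 to 620.1 FPKM in WT muscle. Its highest value was in WT ZT12 replicate 1, which was also the lowest library of all 36 for 6 of the 10 genes (Myh7, Myl2, Tnni1, Tnnt1, Tnnc1 and Tpm3). That library also had the highest WT sums of adipocyte (200.4 FPKM) and red blood cell markers (270.2 FPKM). The highest Schwann cell and nerve sum of Bmal1hep-/- muscle was in ZT16 replicate 3. There Myh7, Myl2, Tnni1, Tnnt1, Tnnc1 and Tpm3 lay above their Bmal1hep-/- medians, with Myh7 at 36.7 against 32.4 FPKM. In Bmal1hep-/- muscle the adipocyte sum reached 885.6 FPKM in ZT4 replicate 1 and the red blood cell sum 408.3 FPKM in ZT8 replicate 2. Sums of 6 tendon and fibroblast markers had a median of 97.8 FPKM (46.5 to 296.5) in Bmal1hep-/- muscle and 163.9 FPKM (78.1 to 277.2) in WT muscle. Their part in the results was not tested. The other lists had these medians: adipocyte 71.0 FPKM in Bmal1hep-/- muscle and 63.3 FPKM in WT muscle, endothelial cell 79.2 FPKM in Bmal1hep-/- muscle and 75.2 FPKM in WT muscle, and smooth muscle 54.8 FPKM in Bmal1hep-/- muscle and 58.1 FPKM in WT muscle. Macrophage markers had 21.1 FPKM in Bmal1hep-/- muscle and 21.3 FPKM in WT muscle, satellite cell markers 17.6 FPKM in Bmal1hep-/- muscle and 19.1 FPKM in WT muscle, and muscle spindle markers 11.6 FPKM in Bmal1hep-/- muscle and 10.2 FPKM in WT muscle. Markers of developing fibres had 5.12 FPKM in Bmal1hep-/- muscle and 5.41 FPKM in WT muscle, red blood cell markers 116.8 FPKM in Bmal1hep-/- muscle and 90.4 FPKM in WT muscle, and hepatocyte markers 0.433 FPKM in Bmal1hep-/- muscle and 4.41 FPKM in WT muscle, with a maximum of 107.4 FPKM in WT ZT8 replicate 3.

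Total reads per library were not given in the sources used here. The FPKM of all genes summed to between 518559 in Bmal1hep-/- ZT20 replicate 3 and 830136 in Bmal1hep-/- ZT12 replicate 2. From the steps between low values of 4554 genes, the relative depth of the shallowest library was 58.1% that of the deepest, and its medians were 74.0% in Bmal1hep-/- muscle and 69.0% in WT muscle. A level of several FPKM or more, as in all 10 genes, was measured in libraries in which 10367 to 11302 genes reached 1 FPKM. Earlier results of these data set 6 libraries apart, 5 of them Bmal1hep-/- (ZT4 replicate 1, ZT8 replicate 2, ZT12 replicate 2, ZT16 replicate 3 and ZT20 replicate 3) and 1 WT (ZT8 replicate 3). The fits were repeated without them, and a result is given both ways where its call changed.

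**Figure D1:**
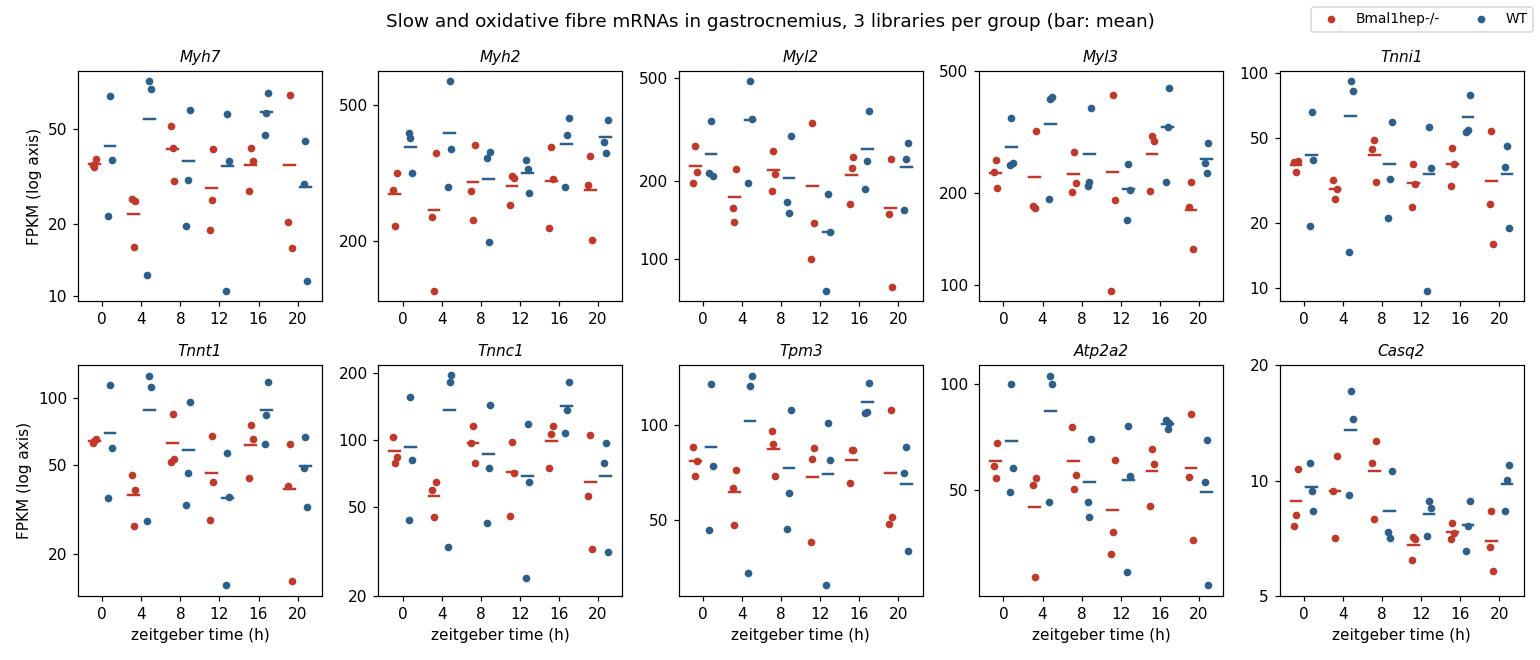
FPKM of the 10 slow and oxidative fibre mRNAs (log axis) against zeitgeber time in hours, with a point per library, Bmal1hep-/- in red to the left of WT in blue, and a bar at the mean of 3 libraries. Myh7 in WT muscle at ZT4 spans 12.2 to 79.2 FPKM, whereas Casq2 stays between 5.79 and 17.1 FPKM in all 36 libraries.

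Muscles of the same genotype and time differed widely in most of these mRNAs. Myh7, the slow myosin heavy chain and the motor that defines type I fibres, had 12.2, 79.2 and 73.7 FPKM in the 3 WT muscles at ZT4. At ZT12 its WT values were 10.5, 57.6 and 36.8 FPKM. In Bmal1hep-/- muscle it had 25.3, 16.0 and 24.9 FPKM at ZT4 and 18.8, 25.1 and 41.1 FPKM at ZT12. Muscles of 1 group thus differed by up to 6.49-fold in Myh7, at ZT4 in WT.

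Tnni1 had 31.97, 25.98 and 28.9 FPKM in Bmal1hep-/- muscle at ZT4, against 14.7, 91.7 and 82.3 FPKM in WT muscle. Tnnc1, the slow and cardiac troponin C that binds calcium, had 59.4, 45.1 and 64.6 FPKM in Bmal1hep-/- muscle at ZT4, against 33.2, 182.6 and 195.3 FPKM in WT muscle. For both genes WT replicate 1 lay below all 3 Bmal1hep-/- muscles and WT replicates 2 and 3 above them, so the genotypes overlapped. Myh7 was arranged in the same way at that time. WT ZT4 replicate 2 was the highest of the 36 libraries for 7 of the 10 genes.

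On the log2(FPKM + 1) scale, the SD within groups was 0.81 for Myh7, 0.77 for Tnnc1, 0.73 for Tnni1 and 0.71 for Tnnt1, the slow troponin T that anchors the complex to tropomyosin. The median gene had an SD of 0.18, and that of Myh7 exceeded 99.0% of the 10837 genes. Tpm3, the slow alpha-tropomyosin, had 0.60, Myl2 0.54, and both Atp2a2 and Myl3, the slow essential light chain, 0.48. Myh2 had 0.38, and Casq2, the cardiac and slow calsequestrin that stores calcium in the reticulum, had the smallest of the 10 at 0.25, above 78.4% of genes. The fast counterparts other than Myh4 lay between 0.10 for Atp2a1 and 0.40 for Myh1.

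The within-group SD also differed between genotypes for some of these mRNAs, a difference that was not tested. For Tnni1 it was 0.42 in Bmal1hep-/- muscle and 0.95 in WT muscle, and for Tnnc1 0.46 in Bmal1hep-/- muscle and 0.98 in WT muscle. For Myh7 it was 0.56 in Bmal1hep-/- muscle and 0.99 in WT muscle. The values lay closer for Myl2, at 0.55 in Bmal1hep-/- muscle and 0.53 in WT muscle. For Myh2 they were 0.41 in Bmal1hep-/- muscle and 0.35 in WT muscle, and for Casq2 0.23 in Bmal1hep-/- muscle and 0.26 in WT muscle.

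Libraries that were high in Myh7 tended to be high in 5 of the other slow fibre mRNAs. After the group means had been removed, the deviation of Myh7 over 36 libraries correlated with that of Tpm3 at Pearson's r of 0.97, of Tnni1 at 0.96, of Tnnc1 at 0.95, of Atp2a2 at 0.92 and of Tnnt1 at 0.90. Spearman's rho was 0.95, 0.93, 0.90, 0.92 and 0.85 in the same order. These 5 genes were the 5 most like Myh7 among 10836 tested genes. For each of them the permutation p of Pearson's r, 2-sided and from 100000 shuffles of libraries within groups, was 1e-05, the smallest the shuffles can give, and 1.8e-05 after adjustment over the 9 relations of Myh7 with the other members.

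Relations with the remaining members were looser. Myl2 had r of 0.62 with Myh7 (rho 0.61, permutation p = 0.0041, adjusted 0.00527) and Myl3 had 0.55 (rho 0.63, permutation p = 0.00227, adjusted 0.0034). Casq2 had r of 0.53 (rho 0.51, permutation p = 0.0124, adjusted 0.014), which without the 6 libraries set apart was 0.50 (adjusted permutation p = 0.0616). Myh2, the type IIa heavy chain, had r of 0.33 (rho 0.28, permutation p = 0.112, adjusted 0.112) and ranked 792nd of 10836 genes by likeness to Myh7. With the 2 libraries farthest from the median of Myh7 left out, WT ZT4 replicate 1 and WT ZT12 replicate 1, r was 0.96 for Tpm3, 0.94 for Tnni1, 0.93 for Tnnc1, 0.91 for Atp2a2 and 0.86 for Tnnt1. Without them it was 0.53 for Myl2, 0.46 for Myl3, 0.31 for Myh2 and 0.40 for Casq2, whose adjusted permutation p of 0.0859 no longer passed. Over all libraries, after removal of a trend with transcript length from each, r with Myh7 was 0.76 for Myl2 and 0.71 for Myl3. It was 0.53 for Casq2 and 0.30 for Myh2, against 0.98 for Tpm3, Tnni1 and Tnnc1, 0.97 for Tnnt1 and 0.93 for Atp2a2. Myl2 and Myl3 thus stood closer to Myh7 without that trend, though still below Atp2a2, and the cause was not tested. Before removal, Spearman's rho of level, relative to each gene's mean, with transcript length differed widely between libraries. It ran from -0.57 in Bmal1hep-/- ZT12 replicate 2 to 0.41 in Bmal1hep-/- ZT8 replicate 1.

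Within the 18 Bmal1hep-/- libraries r with Myh7 was 0.92 for Tpm3, 0.88 for Tnni1, 0.87 for Atp2a2, 0.80 for Tnnc1 and 0.69 for Tnnt1. Within the 18 WT libraries it was 0.99 for Tpm3, 0.99 for Tnni1, 0.95 for Atp2a2, 0.99 for Tnnc1 and 0.98 for Tnnt1. In Bmal1hep-/- libraries alone 4 of the 9 relations passed an adjusted permutation p of 0.05, and those of Tnnt1 and Casq2 (both adjusted permutation p = 0.123), of Myl2 and Myl3 (both 0.227) and of Myh2 did not. In WT libraries alone Casq2, with r of 0.57, did not pass (adjusted permutation p = 0.0816).

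The fast counterparts were only weakly related to Myh7. Their r with Myh7, Myh4 aside and given as a description, ran from -0.18 for Tnni2, the fast troponin I, to 0.23 for Atp2a1, the fast calcium pump. Other members differed from Myh7 in this. The r of the same counterparts with Myl2 ran from 0.33 for Myh1 to 0.51 for Mylpf. With Myh2 it ran from -0.18 for Atp2a1 to 0.76 for Myh1, and with Casq2 from -0.15 for Tnnc2 to 0.55 for Myh1. The points share their library's FPKM scale and depth.

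**Figure D2:**
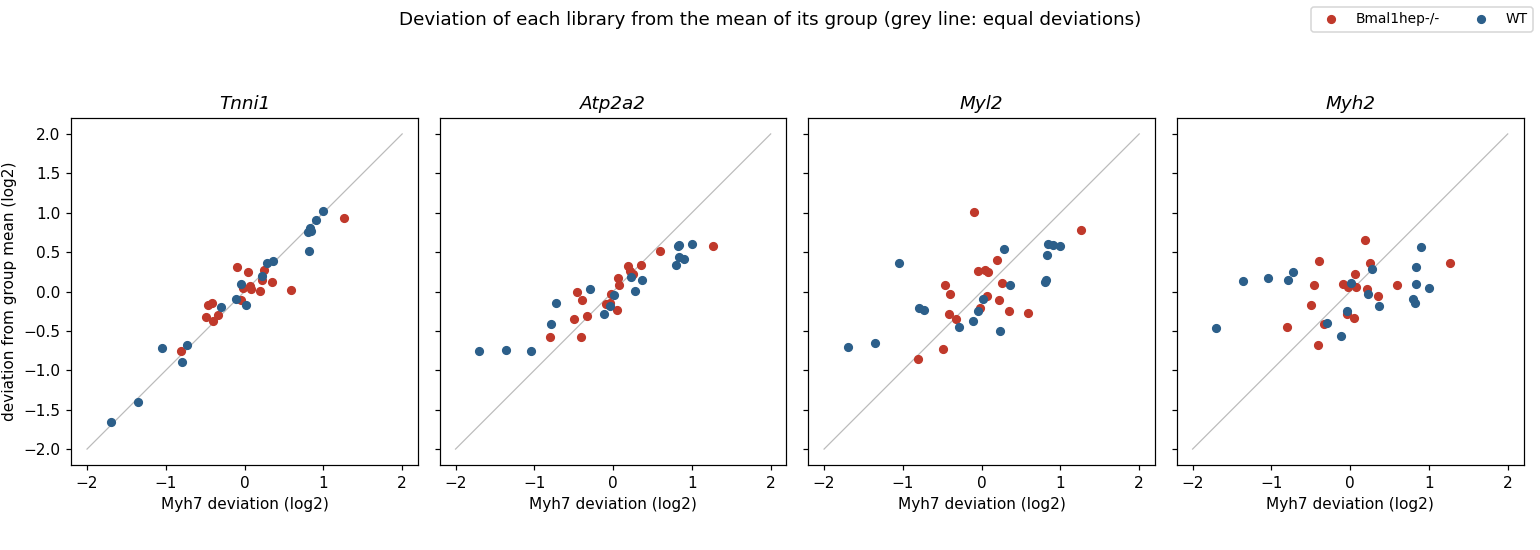
Deviation from the group mean of Tnni1, Atp2a2, Myl2 and Myh2 (y axis, log2) against that of Myh7 (x axis, log2), with a point per library, Bmal1hep-/- in red and WT in blue, and a grey line of equal deviations. Tnni1 follows the line (r = 0.96), Atp2a2 follows Myh7 with a smaller range (r = 0.92), and Myl2 (r = 0.62) and Myh2 (r = 0.33) scatter.

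Among the members, further pairs stood close. Myl2 and Myl3, the light chains that sit on the same myosin, had r of 0.89, and Myl2 and Tnnt1 had 0.83. Myh2 and Casq2 had 0.79, although each was only loosely tied to Myh7. These values are descriptions over the same 36 libraries. With the length trend removed, r was 0.87 for Myl2 and Myl3, 0.82 for Myl2 and Tnnt1, and 0.71 for Myh2 and Casq2. Myl2 and Atp2a2 had 0.53 before and 0.74 after that removal.

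Genes outside the 10 that varied most like Myh7 were farther from it than the 5 members named above. They included Sugp2 (r = 0.68), Trmt5 (0.67), Rsrc1 (0.67), Glud1 (0.66), Best3 (0.65), Hadhb (0.61), Suclg2 (0.61), Dkk2 (0.61) and Gtf3c2 (0.60). Hadhb encodes a subunit of the mitochondrial trifunctional protein of fatty acid oxidation, Glud1 glutamate dehydrogenase and Suclg2 a subunit of succinyl-CoA ligase. Sugp2 fell to 0.45 once a trend with transcript length had been removed from each library.

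Outside the 10 genes, Myh2 was most like Actn2, a Z-disc alpha-actinin (r = 0.91), then Bdh1, a ketone body enzyme (0.88), Wfs1 (0.88), Hadha, the partner of Hadhb (0.88), and Adck3 (0.86). Myh1, the type IIx heavy chain, had r of 0.76 with Myh2. Again outside the 10, Casq2 was most like Pdlim1 (0.87), Actn2 (0.80), Arpp21 (0.79), Ankrd2 (0.78) and Podxl (0.73), and Myl2 most like Myoz2 (0.82), Pdlim1 (0.79), Adprhl1 (0.78), Ankrd2 (0.78) and Smim11 (0.75). Ankrd2 encodes a stretch-responsive protein of slow fibres and Myoz2 a calcineurin-binding protein of the Z-disc. The choice to list genes for Myh2, Casq2 and Myl2 was made after seeing the data.

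**Figure D3:**
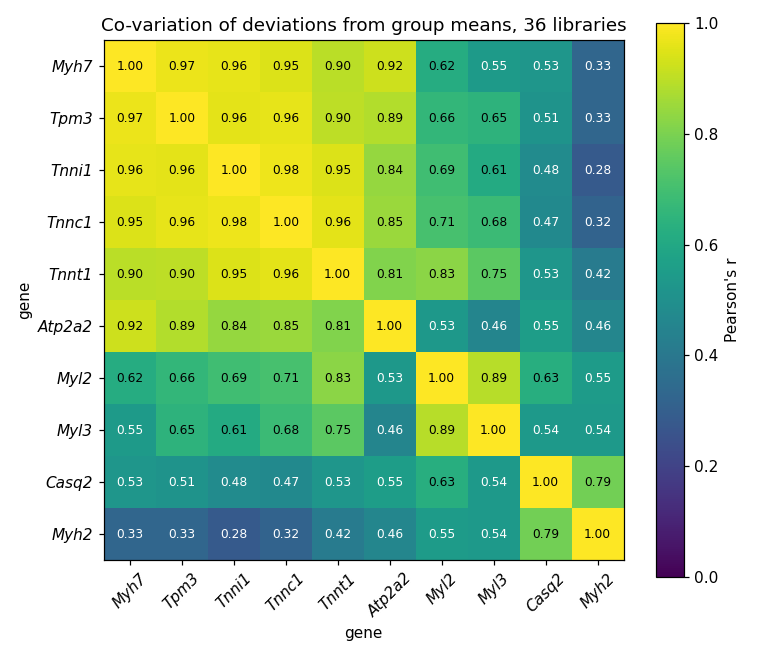
Pearson's r between the log2 deviations from group means of each pair of the 10 mRNAs over 36 libraries, with colour and printed value giving r. The values are those before removal of the length trend. Myh7, Tpm3, Tnni1, Tnnc1, Tnnt1 and Atp2a2 form a block (0.81 to 0.98), Myl2 and Myl3 pair with each other (0.89), and Casq2 pairs with Myh2 (0.79).

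Averaged over the 6 times, none of the 10 mRNAs passed the test between Bmal1hep-/- and WT muscle after adjustment over all genes, although all 10 estimates lay below 0. The limma test called 0 of 10, and 0% of the 10837 genes were called, with 2 members (Myh2 and Casq2) and 907 genes at an unadjusted p under 0.05. Estimates on the lower side made up 51.6% of all genes tested. The 10 log2 differences had a median of -0.21, against a median of -0.0028 over all genes tested. Because the 10 mRNAs vary together between libraries, their common sign is not 10 separate observations. The p-values measure the spread between the biological replicates as labelled.

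Myh2 ranged over 143.2, 286.8 and 381.8 FPKM (lowest, median and highest of 18) in Bmal1hep-/- muscle, against 198.9, 363.9 and 585.8 FPKM in WT muscle. The 2 ranges overlapped. Its log2 difference was -0.38 ± 0.12 (SE; 95% interval -0.63 to -0.14), a ratio of 0.768, with a limma adjusted p of 0.314, the smallest of the 10. Myh7 ranged over 15.9, 32.4 and 69.7 FPKM in Bmal1hep-/- muscle, against 10.5, 40.8 and 79.2 FPKM in WT muscle, with a difference of -0.23 ± 0.26 (interval -0.77 to 0.32) and an adjusted p of 0.881. The lowest and the highest Myh7 values were both in WT muscle.

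Of the light chains, Myl3 ranged over 95.7, 212.0 and 418.2 FPKM in Bmal1hep-/- muscle, against 163.5, 249.5 and 439.8 FPKM in WT muscle. Its difference was -0.31 ± 0.15 (interval -0.62 to 0.0032, adjusted p = 0.602). Myl2 had 77.8, 205.0 and 336.3 FPKM in Bmal1hep-/- muscle, against 75.3, 212.0 and 486.2 FPKM in WT muscle, a difference of -0.22 ± 0.17 (adjusted p = 0.793). Both ranges overlapped, and the interval of Myl2 ran from -0.58 to 0.14.

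The thin-filament genes had wide intervals. Tnni1 ranged over 16.0, 33.3 and 53.9 FPKM in Bmal1hep-/- muscle, against 9.69, 42.8 and 91.7 FPKM in WT muscle, and its difference of -0.21 had a 95% interval from -0.70 to 0.29. Tnnt1 ranged over 15.1, 52.5 and 84.6 FPKM in Bmal1hep-/- muscle, against 14.4, 58.2 and 126.1 FPKM in WT muscle (-0.21, interval -0.68 to 0.27). For both, the Bmal1hep-/- range lay inside the WT range. Tnnc1 (-0.14, interval -0.66 to 0.37) and Tpm3 (-0.12, interval -0.52 to 0.28) had the estimates nearest 0. Intervals of this width hold changes in either direction.

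Of the calcium genes, Atp2a2 ranged over 28.5, 54.5 and 82.5 FPKM in Bmal1hep-/- muscle, against 26.9, 63.7 and 105.5 FPKM in WT muscle, with a difference of -0.20 ± 0.15 (interval -0.52 to 0.12, limma adjusted p = 0.787). Casq2 ranged over 5.79, 7.66 and 12.7 FPKM in Bmal1hep-/- muscle, against 6.53, 8.84 and 17.1 FPKM in WT muscle, with a difference of -0.17 ± 0.08 (95% interval -0.33 to -0.0085, adjusted p = 0.566). Its ranges overlapped as well.

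The fast counterparts gave no call either. Myh1 had a median of 422.7 FPKM in Bmal1hep-/- muscle and 558.3 FPKM in WT muscle, a log2 difference of -0.40 ± 0.12 (limma adjusted p = 0.302) beside the -0.38 of Myh2. Of the 9 counterparts other than Myh4, the estimates of the other 8 were above 0, and the median of the 9 was 0.064. Among 14 tested genes of a wider slow and oxidative list, 0 were called and 11 estimates were below 0, with a median of -0.16. The 4 of smallest p there were Myom3 (-0.34 ± 0.11, adjusted p = 0.351), an M-band protein, Actn2 (-0.24 ± 0.09), Fabp3 (-0.21 ± 0.10), a fatty acid binding protein, and Csrp3 (-0.39 ± 0.20). Among 12 other fast fibre genes 0 were called and 2 estimates were below 0, with a median of 0.036. The 4 of smallest p were Myoz3 (0.12 ± 0.04, adjusted p = 0.404), Actn3, Sypl2 and Ldha. Proteins around the calcium pump and store gave 0 calls of 9, with Hrc (-0.16 ± 0.05), Mrln (0.30 ± 0.08, both adjusted p = 0.244), Asph and Sln (0.55 ± 0.39) of smallest p. The lists and members were chosen with earlier results of these data known, so these counts describe them only.

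**Figure D4:**
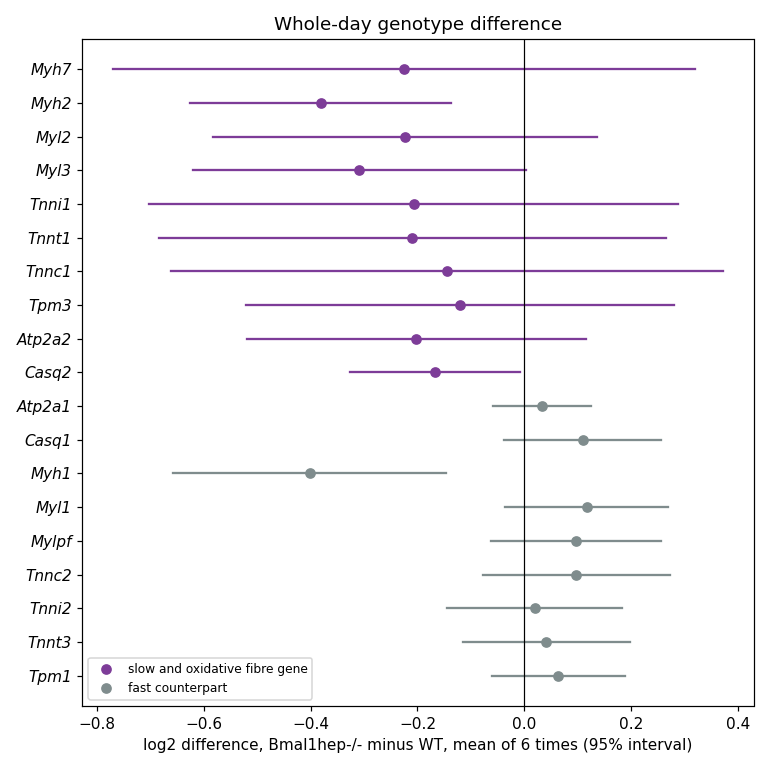
Log2 difference of Bmal1hep-/- minus WT averaged over 6 times (x axis) for the 10 slow and oxidative fibre genes (purple) and 9 fast counterparts (grey), with 95% intervals from the limma fit. All 10 purple points lie below 0, between -0.38 (Myh2) and -0.12 (Tpm3), Myh1 lies at -0.40, and no gene passed the adjusted threshold.

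The slow heavy chain as a share of the 3 measured heavy chains, Myh7 of Myh7 plus Myh2 plus Myh1, compares genotypes without regard to scaling between libraries. Its median was 4.24% in Bmal1hep-/- muscle (range 2.29% to 7.82%) and 4.98% in WT muscle (range 0.958% to 7.45%). The WT range contained nearly all of the Bmal1hep-/- range. The mean log2 difference over the 6 times was 0.17 ± 0.27, with a permutation p of 0.514 (2-sided, 100000 draws that swapped genotype within time). Medians over libraries and the mean difference of logs have opposite signs here. The share depends on its denominator too: the whole-day log2 differences were -0.38 for Myh2, -0.40 for Myh1 and -0.23 for Myh7, none of them called. Myh2 made up a median of 36.9% of the same sum in Bmal1hep-/- muscle and 37.5% in WT muscle.

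At single times no member was called by limma, and 0% of the 10837 genes were called at each of the 6 times. At ZT4 all 10 estimates were below 0, from -1.01 (Tnnt1) to -0.47 (Casq2), against 50.6% of all genes, with 4 members and 982 genes at an unadjusted p under 0.05. Myh2 had 235.6, 143.2 and 362.1 FPKM in Bmal1hep-/- muscle at ZT4, against 287.8, 585.8 and 371.4 FPKM in WT muscle, a difference of -0.78 ± 0.29 (adjusted p = 0.447). The groups of all 10 mRNAs overlapped at ZT4, where 8.37% of all genes had every Bmal1hep-/- library below every WT library and 6.98% had every one above.

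At ZT16 all 10 estimates were again below 0, from -0.72 (Myh7) to -0.043 (Casq2), against 46.3% of all genes. Here Myh7, Tnni1, Tpm3 and Atp2a2 had every Bmal1hep-/- library below every WT library, 4 of 10 members, against 3.96% of all genes tested. Myh7 had 27.4, 41.5 and 36.7 FPKM in Bmal1hep-/- muscle, against 47.0, 58.4 and 70.4 FPKM in WT muscle, and Atp2a2 had 45.1, 65.6 and 59.5 FPKM in Bmal1hep-/- muscle, against 79.0, 74.4 and 77.6 FPKM in WT muscle. These 4 mRNAs belong to the block that varies together, so the 4 are not separate observations. The limma differences were -0.72 ± 0.65 for Myh7 and -0.45 ± 0.38 for Atp2a2, with an adjusted p of 1 for each.

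At ZT20 Myh2, Myl3 and Casq2 had every Bmal1hep-/- library below every WT library, 3 of 10 members, against 6.52% of all genes. Myh2 had 291.1, 353.8 and 201.4 FPKM in Bmal1hep-/- muscle, against 390.4, 362.7 and 452.2 FPKM in WT muscle. Casq2 had 6.73, 8.30 and 5.79 FPKM in Bmal1hep-/- muscle, against 8.31, 10.1 and 10.96 FPKM in WT muscle. The closest Casq2 libraries, at 8.30 and 8.31 FPKM, nearly touched. At ZT12 Casq2 alone did not overlap (1 of 10 members, against 4.41% of genes), with 6.20, 7.10 and 7.05 FPKM in Bmal1hep-/- muscle and 7.15, 8.85 and 8.50 FPKM in WT muscle. All 10 mRNAs overlapped at ZT0 and ZT8, where 5.79% and 4.13% of genes were separated with Bmal1hep-/- lower and 6.55% and 2.41% with Bmal1hep-/- higher. No member was separated with Bmal1hep-/- higher at ZT12, ZT16 or ZT20, against 4.39%, 5.48% and 4.63% of genes. At ZT0 7 of 10 estimates were below 0, at ZT8 2 of 10, at ZT12 5 of 10 and at ZT20 7 of 10, against 47.5%, 54%, 53.4% and 49.6% of all genes. The test of whether the genotype difference varied with time called 0 of 10 members and 0% of genes, with a smallest limma adjusted p among members of 0.899 for Casq2.

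No rhythm was called in these mRNAs within either genotype. A 24 h cosine called 0 of 10 members in Bmal1hep-/- muscle, where 5.47% of genes were called, and 0 of 10 in WT muscle, where 6.03% were called. The difference in rhythm between genotypes called 0 of 10 members and 0% of genes, with 0 members and 435 genes at an unadjusted p under 0.05. An F test of any difference between the 6 times called 0 of 10 in Bmal1hep-/- muscle (3.09% of genes) and 0 of 10 in WT muscle (3.08% of genes). Fitted amplitudes, on the log2 scale from mean to peak, had a median of 0.089 in Bmal1hep-/- muscle and 0.14 in WT muscle, with standard errors of 0.083 to 0.27. The amplitude of Myh7 was 0.076 ± 0.27 in Bmal1hep-/- muscle and 0.017 ± 0.27 in WT muscle, and that of Myl2 was 0.092 ± 0.19 in Bmal1hep-/- muscle and 0.44 ± 0.19 in WT muscle (limma adjusted p = 0.375).

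A test of the rhythm with both genotypes averaged was added after seeing the data. It called 1 of 10 members and 12.4% of genes, so the count was near the background. The member called was Casq2. In Bmal1hep-/- muscle its 3 libraries had 7.60, 8.14 and 10.7 FPKM at ZT0, 9.42, 7.09 and 11.6 at ZT4, 11.1, 7.92 and 12.7 at ZT8, then 6.20, 7.10 and 7.05 at ZT12, followed by 7.02, 7.73 and 7.31 at ZT16, and 6.73, 8.30 and 5.79 at ZT20. In WT muscle they had 11.1, 9.37 and 8.33 FPKM at ZT0, 9.16, 17.1 and 14.4 at ZT4, 7.33, 7.09 and 10.6 at ZT8, then 7.15, 8.85 and 8.50 at ZT12, followed by 6.53, 7.61 and 8.82 at ZT16, and 8.31, 10.1 and 10.96 at ZT20. The mean was highest at ZT8 in Bmal1hep-/- muscle and at ZT4 in WT muscle, with overlap between most times. The mean rhythm had an amplitude of 0.24 ± 0.059 and a peak at 3.50 ± 0.93 h (limma adjusted p = 0.0128), and without the 6 libraries set apart the adjusted p was 0.0479. By genotype, the amplitude was 0.25 ± 0.08 with a peak at 4.94 ± 1.28 h in Bmal1hep-/- muscle (adjusted p = 0.181) and 0.27 ± 0.08 with a peak at 2.18 ± 1.18 h in WT muscle (adjusted p = 0.117, and 0.0311 with array weights). Asph, the junctin and junctate gene whose product joins calsequestrin to the release channel, was called in both genotypes, with an amplitude of 0.19 ± 0.05 peaking at 3.80 h in Bmal1hep-/- muscle (adjusted p = 0.0418) and 0.25 ± 0.05 peaking at 2.92 h in WT muscle (adjusted p = 0.00214).

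**Figure D5:**
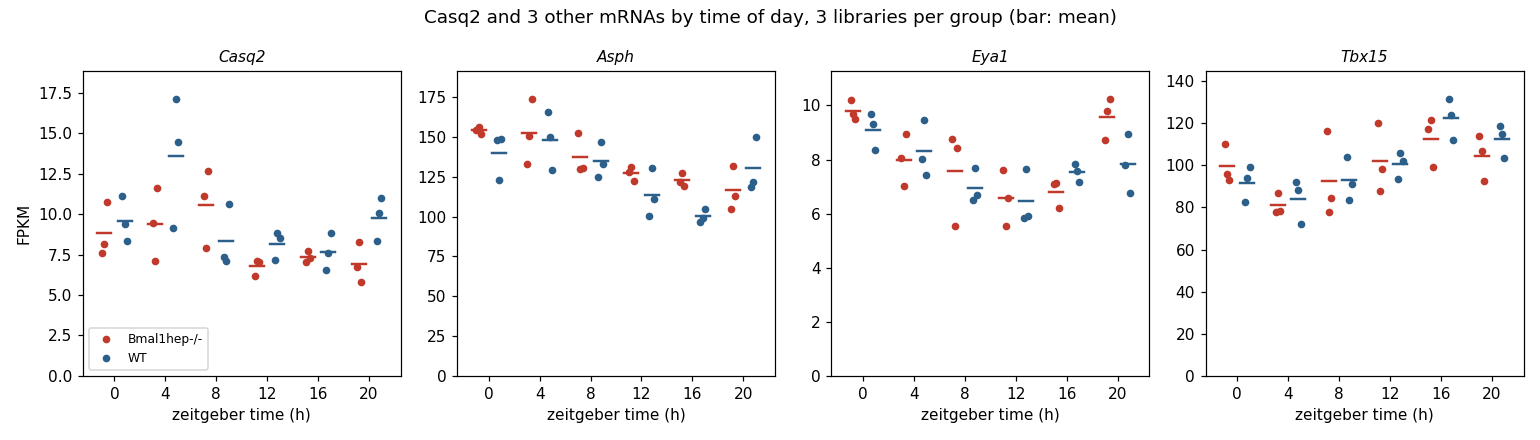
FPKM of Casq2, Asph, Eya1 and Tbx15 against zeitgeber time in hours, with a point per library, Bmal1hep-/- in red to the left of WT in blue, and a bar at the mean of 3 libraries. The fitted mean rhythms peak at 3.50 h for Casq2, 3.29 h for Asph, 23.6 h for Eya1 and 16.8 h for Tbx15.

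Rhythms of fibre type regulators were examined beside those of the contractile genes. Of 24 tested regulators, 2 were called in Bmal1hep-/- muscle (Tbx15 and Eya1), against the 5.47% of all genes, and 2 in WT muscle (Tbx15 and Vgll2), against 6.03%, so both counts were near the background. Tbx15, a T-box factor of glycolytic fibres, had an amplitude of 0.20 ± 0.05 peaking at 16.9 h in Bmal1hep-/- muscle (limma adjusted p = 0.0476) and 0.25 ± 0.05 peaking at 16.6 h in WT muscle (adjusted p = 0.00487).

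Eya1, a transcriptional cofactor and phosphatase, had 0.26 ± 0.05 in Bmal1hep-/- muscle (adjusted p = 0.00418) and 0.19 ± 0.05 in WT muscle (adjusted p = 0.0593). Vgll2, a TEAD cofactor needed for slow fibres, had 0.15 ± 0.12 in Bmal1hep-/- muscle (adjusted p = 0.77) and 0.50 ± 0.12 in WT muscle (adjusted p = 0.0171), and the difference between its rhythms had an adjusted p of 0.913. In the mean of both genotypes 5 of 24 regulators were called, against 12.4% of all genes: Nfatc1 and Rcan1 of the calcineurin pathway besides Eya1, Tbx15 and Vgll2. Averaged over times, 0 of 24 regulators were called for a genotype difference, against 0% of all genes. Vgll2 (-0.21 ± 0.11, limma adjusted p = 0.635), Nfatc4, Esrra and Hdac5 had the smallest p.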

How the data were processed

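Polyadenylated RNA of mouse gastrocnemius was sequenced in 36 libraries, 3 biological replicates for each of 12 groups of genotype and time. The values are FPKM per gene symbol in the table the authors deposited. The submitters' processing notes name FastQC 0.11.8, STAR, mm10 and GRCm39; the tool and annotation behind FPKM, and whether libraries were scaled to each other, were not given in the sources used here. Reads may have been split differently among paralogs.

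Values were taken as log2(FPKM + 1), which understates changes of low genes, and 10837 genes, those averaging 1 FPKM or more, were tested with limma 3.58.1 in R 4.3.3 (eBayes with trend and robust), adjusted by Benjamini-Hochberg over all of them with a threshold of 0.05. Genotypes and times were compared in a fit of 12 group means (24 residual degrees of freedom). Rhythms were compared in a fit of a mean, cosine and sine of fixed 24 h period per genotype (30 residual degrees of freedom). The tests were tried on simulated data. Co-variation used deviations from group means. The slow myosin share was planned with Myh4 in the sum, which was left out because it was listed at 0 in 34 libraries. Relative depth came from the worth of 1 read in 4554 genes; depth itself is unknown, so no counting interval is given. Transcript lengths came from GENCODE M21 and matched 96.6% of tested genes. Promoters came from RefSeq on GRCm38.p6.

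The 10 members and all lists were chosen with earlier results of these data known. Genes outside the 10 were named as their fast counterparts, as list members past a threshold or the 4 of smallest p, or as the 10 most like Myh7, predicted genes aside; 2 genes that these rules name are not reported here and are not in the counts of lists. Marker lists of 12 cell types were summed. Alternatives were another pseudocount, other filters, rescaling, quantile normalization, a replicate block, array weights, fewer libraries and leaving out each library in turn; removal of a length trend was added after seeing the data.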

Additional observations from a re-analysis of the deposited data

How the results depend on the processing

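No member was called for a genotype difference, interaction or rhythm within a genotype under a pseudocount of 0.1, quantile normalization, median-of-ratios rescaling, no filter or one at 5 FPKM, removal of the length trend or omission of the 6 libraries set apart. Array weights were the exception: they called 1 member for the interaction (Casq2, adjusted p = 0.00792), 2 differences at single times (Casq2 at ZT8 and Myl3 at ZT12), 1 rhythm in WT (Casq2, amplitude 0.28, adjusted p = 0.0311), 1 difference between times in WT (Casq2) and 6 differences between times in Bmal1hep-/- muscle (Atp2a2, Casq2, Myh2, Myl2, Myl3 and Tnnt1). Over all genes, those weights called 2394 of 10837 for the interaction, 1388 for the rhythm in WT and 1643 between times in WT. At single times they called 4177 of 65022 tests, 1 per gene and time. Between times in Bmal1hep-/- muscle they called 7513 of 10837 genes, and the cause was not tested. The mean rhythm of Casq2 was called in every alternative run, with a largest adjusted p of 0.0479 without the 6 libraries and 0.0344 when each library was left out in turn. Leaving out each library in turn gave 0 to 1 members called between times in WT (1 without WT ZT4 replicate 1, adjusted p = 0.028) and 0 for each other genotype or rhythm test within a genotype. Without WT ZT4 replicate 1, 296 of 10837 genes were called between times in WT. In the 18 Bmal1hep-/- libraries alone 4 relations with Myh7 passed.

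Changes of sign were looked for in the genotype differences over all times and at ZT4, ZT16 and ZT20. They occurred only at ZT16 and ZT20, all without a call, and the cause was not tested. The differences at ZT0, ZT8 and ZT12 were not examined in this way, and amplitudes have no sign. At ZT16 Casq2 went to 0.00048 with array weights and ran from -0.14 to 0.052 without 1 library. At ZT20 array weights gave -0.33 for Myh7, -0.22 for Tpm3 and -0.13 for Atp2a2. Omission of the 6 libraries gave 0.19 for Tnni1, 0.078 for Tnnt1 and 0.30 for Tnnc1, and removal of the length trend gave 0.18 for Tnnc1. Without 1 library the ZT20 difference ran from -0.45 to 0.59 for Myh7, -0.65 to 0.19 for Tnni1, -0.91 to 0.078 for Tnnt1, -0.59 to 0.30 for Tnnc1, -0.31 to 0.29 for Tpm3 and -0.14 to 0.53 for Atp2a2.

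Of 18 same-numbered pairs of libraries, Bmal1hep-/- with WT at the same time, 3 had deviations correlated above 0.1 (range -0.23 to 0.18). Pairs with different numbers were not compared, so these values cannot show whether samples were paired or handled together. With the replicate number as a block, 0 members were called over all times (smallest adjusted p = 0.302) and no other call changed. The share of Myh7 with Myh4 in the sum, and that of Myh7 against Myh4 alone, were not run because Myh4 was listed at 0 in 34 libraries. Depth is unknown. The whole-day differences of the 6 type I genes in the block had standard errors of 0.15 to 0.26, which rest on the spread between libraries of a group. How much of that spread lay between animals was not tested.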
